A study of Mus musculus with 10 samples.

Results

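The cytochrome P450 family is described here on whole-transcriptome expression arrays of 10 B6xBALB F2 mice. Its members were taken by symbol: every gene whose name in the platform's annotation starts with Cyp and a digit, other than the sterol demethylase Cyp51. Where a gene had several probe sets, the one brightest on average over the 10 arrays was used. This gave 72 genes among 18193 with a single symbol, and 38 of the 72 were bright enough to be tested. The other 34 lay at or near background. Knockout mice labelled CF-/-, lacking the chloride channel gene Cftr, made up 8 of the arrays, of which 5 carry the letter H and 3 the letter L in their codes. The other 2 arrays came from controls, whose codes hold D in that place. None of these letters is spelled out, although the series title speaks of variable weight. M stands in 6 codes and F in 4. Each code also holds a number: 5 knockouts lie in an upper range, and 3 knockouts and both controls in a lower one. An F2 animal is a grandchild of an inbred cross, here of B6 and BALB strains, so that each animal carries its own mixture of alleles. Genotypes at the P450 loci, age, diet and the Cftr allele are not stated in the labels, and whatever D codes cannot be told apart from the genotype.

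Cytochrome P450 enzymes are heme proteins that insert an oxygen atom into their substrates, with electrons passed on by partner proteins. The lower-numbered families act chiefly on drugs, plant compounds and other foreign molecules. The Cyp4 genes and the Cyp2j and Cyp2u subfamilies hydroxylate or epoxidize fatty acids and eicosanoids, and other families make and break down bile acids, vitamin D, steroid hormones and retinoic acid. In the small intestine, absorptive cells near the villus tip carry much of this activity, and the airway has a P450 set of its own in the club cells. Many Cyp2 and Cyp3 genes are switched by nuclear receptors that sense bile acids and foreign compounds.

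Which tissue the RNA came from matters for this family. The labels name whole right lung, and the series title names the intestine. Transcripts of both were measured well above the array medians of 18.4 to 18.9. The summed intensity of 8 enterocyte genes lay at 18028 to 22595 in knockouts and 27724 to 29844 in controls. For 4 club cell genes it was 2177 to 6438 in knockouts and 2993 to 2998 in controls, and for 5 genes of alveolar type 2 cells 1461 to 5922 in knockouts and 1478 to 1642 in controls. For the liver, the organ richest in P450 enzymes, 6 genes summed to 85.9 to 115 in knockouts and 114 to 122 in controls. Of these, Ttr stood above the array medians, at 30.1 to 50.2 in knockouts and 63.1 and 39.5 in controls. The other liver genes stayed near background. In such bulk RNA, fewer cells of a type and less RNA per cell cannot be told apart. Cftr itself read 28.1 ± 6.63 in knockouts (SD, n = 8) and 134 ± 4.47 in controls (SD, n = 2), with no overlap.

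Signal was uneven over the family. A mean intensity above 1000 was seen for 1 gene, Cyp4f14, a leukotriene and fatty acid hydroxylase, whose mean over all arrays was 1532. Between 100 and 1000 lay 10 genes, and 18 lay between the highest array median and 100. The remaining 43 were at or under that median, and the median member stood at percentile 25.8 of all genes. Probe sets differ in how strongly they report their transcript, so an intensity shows how far a gene stood above background and was not used to order genes by abundance. The brightest members after Cyp4f14 were Cyp2f2, Cyp3a13, Cyp2s1, Cyp4f16, Cyp2d26, Cyp4v3, Cyp2j6, Cyp2c65 and Cyp2c55. Signal was low for several classic liver and adrenal members, though not for all. Cyp1a2, Cyp2c29, Cyp8b1, Cyp17a1, Cyp11b1 and the Cyp4a genes were all among the 34 not tested, of which the brightest averaged 13.7. The liver members Cyp2e1 and Cyp2d9 averaged 38.2 and 30.3, above the array medians, and were tested.

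**Figure D1:**
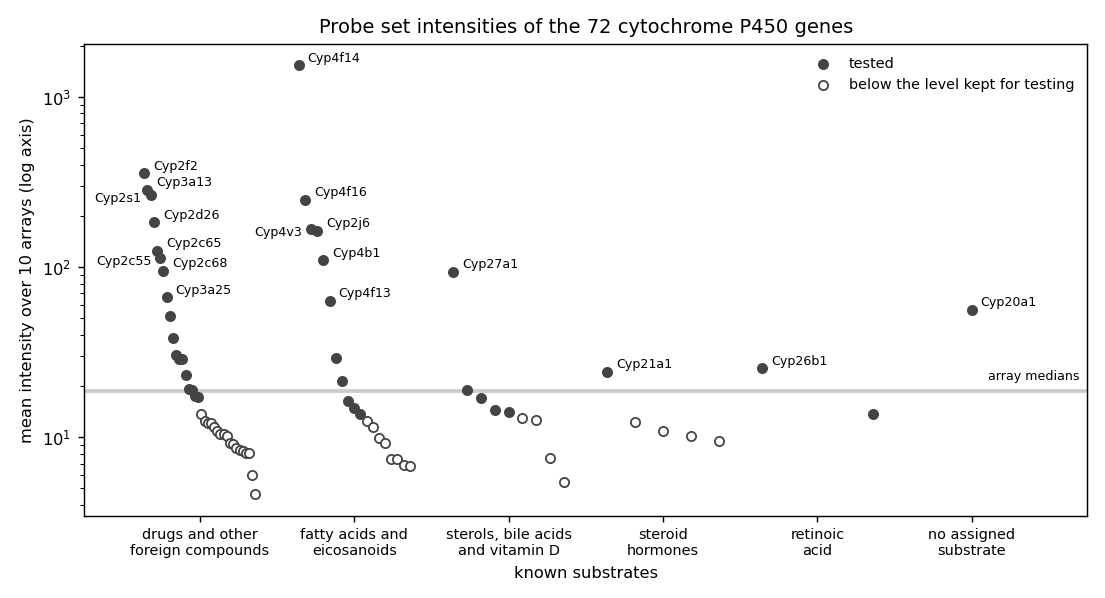
Mean intensity over the 10 arrays (log axis) of the 72 P450 genes, grouped by substrate class as assigned from the gene symbol. Filled points mark the 38 tested and open points the 34 below the level kept for testing. The grey band marks the array medians. Cyp4f14 stands apart above 1000, and steroid hormone and retinoic acid genes stay close to the band or below it.

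Knockouts were set against controls to see what the loss of Cftr went with. In this comparison 6 of the 38 P450 genes fell and 0 rose. They were Cyp3a25, Cyp4v3, Cyp4f16, Cyp27a1, Cyp2d22 and Cyp4f13, with log2 differences of -3.23 to -0.45. The fit was limma on log2(intensity + 16) over 13644 genes, with number range and letter as covariates, and a gene was called at a Benjamini-Hochberg adjusted p under 0.05. The 6 are 15.8% of the P450 genes tested, against 2.76% of all genes called lower, and the 0 stands against 1.51% called higher. At an unadjusted p under 0.05 limma gave 11 P450 genes lower and 1 higher, which is 28.9% against 10.8% of all genes lower, and 2.63% against 8.66% higher. The median log2 difference of the 38 members was -0.03, against -0.0048 for all genes, and 21 of 38 members had a lower value, 55.3% against 51.3%. All 8 knockouts lay below both controls for 10 of the 38 genes (26.3%, against 11.7% of all genes) and above both for 2 (5.26%, against 10%).

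The number of arrays limits the precision of this comparison. No control falls in the upper number range, so the adjusted differences rest on 3 knockouts and 2 controls. Nothing but the codes shows the samples to be separate animals, so the p-values speak of the spread between these arrays alone. With control replicate 1 left out, limma called 0 P450 genes lower and 0 of all genes, and without control replicate 2 it called 1, Cyp3a25. Of the knockouts, leaving out H replicate 4 gave 2 P450 genes called lower, and leaving out H replicate 5 or L replicate 3 gave 3.

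**Figure D2:**
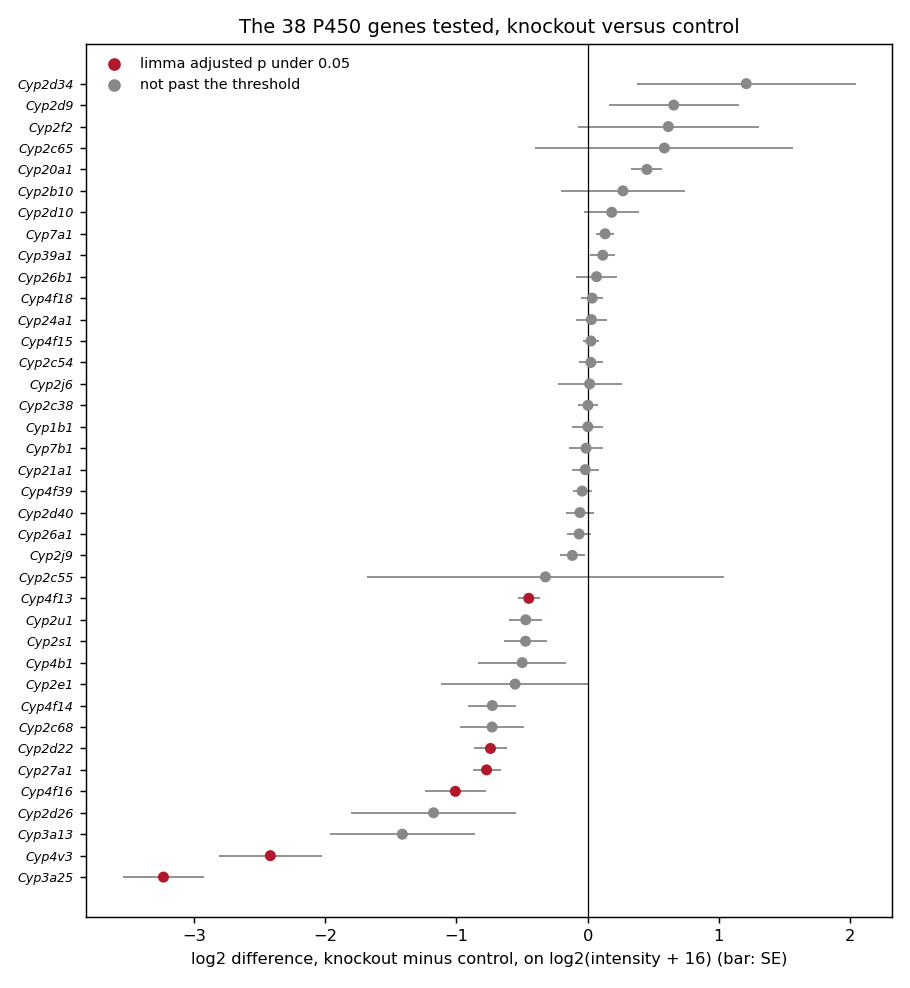
Log2 difference, knockout minus control, of the 38 P450 genes tested (points) with its standard error (bars) on the log2(intensity + 16) scale; red points passed limma's adjusted p of 0.05. Cyp3a25 at -3.23 and Cyp4v3 at -2.42 lie far to the left, and most members lie close to 0.

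The drug-metabolizing Cyp3a25 showed the largest difference of the family. Its intensity was 6.03 at the lowest, 14.7 at the median and 30.0 at the highest of the 8 knockouts, and 327 and 207 in the controls. The groups were thus far apart, and every knockout stood near background. The log2 difference was -3.23 ± 0.31 (SE; limma adjusted p = 0.00531), a 9.40-fold lower value on the scale with 16 added. The lipid hydroxylase Cyp4v3, known for corneoretinal disease when its human counterpart is lost, ranged between 57.8 and 152 in knockouts with a median of 76.3. In the controls it read 587 and 351, so that again no value was shared between the groups. Its log2 difference was -2.42 ± 0.39 (limma adjusted p = 0.0168). A second Cyp4v3 probe set separated the groups as well, at 33.2 ± 12.4 in knockouts (SD, n = 8) and 206 ± 70.1 in controls (SD, n = 2).

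Cyp4f16 and Cyp4f13 belong to the subfamily that hydroxylates leukotrienes and long fatty acids. Cyp4f16 had a lowest, median and highest intensity of 143, 204 and 329 in knockouts, and 382 and 414 in controls, a log2 difference of -1.01 ± 0.23 (limma adjusted p = 0.0447). Cyp4f13 read 49.4, 59.8 and 68.6 in knockouts on the same 3 measures and 80.8 and 74.6 in controls, with a difference of -0.45 ± 0.08 (limma adjusted p = 0.0236). Both genes were lower in every knockout than in either control, by margins that were small beside those of Cyp3a25 and Cyp4v3. Cyp4f16 stood close to the threshold and lost its call under 15 of 28 alternative settings, among them pseudocounts of 1 and 64.

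Cyp27a1, the mitochondrial sterol 27-hydroxylase that opens the acidic route of bile acid synthesis, was tightly grouped. The knockouts lay between 68.8 and 95.6 with a median of 81.1, and the controls at 146 and 139. With this narrow spread a log2 difference of -0.77 ± 0.11 passed (limma adjusted p = 0.0120). Cyp2d22, a drug-metabolizing member of the Cyp2d cluster, lay at 13.9, 17.7 and 26.2 as lowest, median and highest of the knockouts, and at 48.2 and 40.2 in controls. The log2 difference was -0.74 ± 0.13 (limma adjusted p = 0.0181). In knockouts its signal was thus at the array medians.

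**Figure D3:**
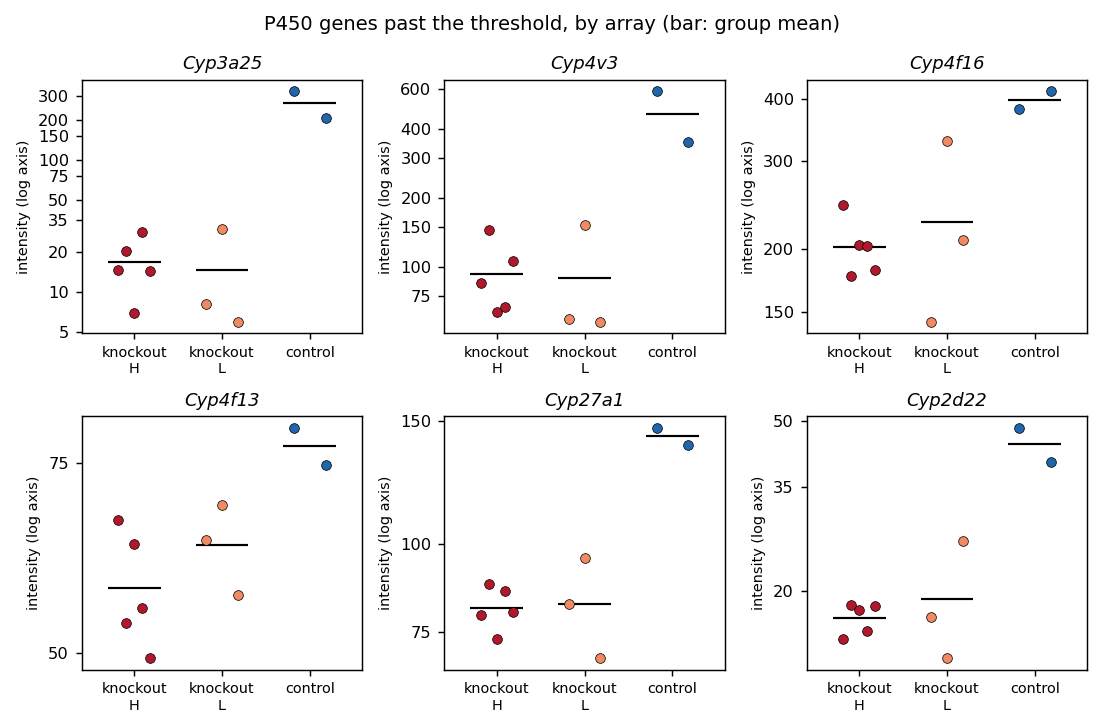
Intensity (log axis) of the 6 P450 genes past the threshold on every array: 5 knockouts H, 3 knockouts L and 2 controls, with each group's mean as a bar. In every panel all 8 knockouts lie below both controls.

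Promoters of the genes that fell are shown because 5 of the 6 have one in the RefSeq-derived table (mouse assembly GRCm38.p6), and because Cyp4f13 and Cyp4f16 lie in 1 cluster on chromosome 17, so that their start regions can be compared. Each runs from 250 bases before to 50 bases after the RefSeq start, on the gene's own strand, 5′ to 3′. Capitals mark AGGTCA and also, where it occurs, the letters AGTTCA, half-sites bound by nuclear receptors such as Nr1i2 and Hnf4a, on either strand. The places are chr5:146009569-146009868 on the minus strand for Cyp3a25, chr8:45333114-45333413 minus for Cyp4v3 and chr17:32947312-32947611 minus for Cyp4f13. Cyp4f16 lies at chr17:32536307-32536606 on the plus strand and Cyp27a1 at chr1:74713285-74713584 plus.
Cyp3a25: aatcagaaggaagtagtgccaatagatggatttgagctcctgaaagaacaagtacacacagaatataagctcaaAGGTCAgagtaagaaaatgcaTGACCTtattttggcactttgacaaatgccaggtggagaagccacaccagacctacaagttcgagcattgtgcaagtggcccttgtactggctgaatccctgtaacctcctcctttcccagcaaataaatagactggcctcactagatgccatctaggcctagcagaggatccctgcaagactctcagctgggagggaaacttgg
Cyp4v3: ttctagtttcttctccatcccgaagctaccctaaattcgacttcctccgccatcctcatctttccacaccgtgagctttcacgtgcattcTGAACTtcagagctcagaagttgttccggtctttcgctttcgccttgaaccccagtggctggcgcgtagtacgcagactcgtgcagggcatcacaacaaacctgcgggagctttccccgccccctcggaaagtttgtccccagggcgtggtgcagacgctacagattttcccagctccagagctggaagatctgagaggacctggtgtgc
Cyp4f13: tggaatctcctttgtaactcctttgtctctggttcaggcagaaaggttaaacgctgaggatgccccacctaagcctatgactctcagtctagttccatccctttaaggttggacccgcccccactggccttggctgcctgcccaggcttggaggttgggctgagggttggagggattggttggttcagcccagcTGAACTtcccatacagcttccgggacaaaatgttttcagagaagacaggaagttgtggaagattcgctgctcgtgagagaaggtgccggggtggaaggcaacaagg
Cyp4f16: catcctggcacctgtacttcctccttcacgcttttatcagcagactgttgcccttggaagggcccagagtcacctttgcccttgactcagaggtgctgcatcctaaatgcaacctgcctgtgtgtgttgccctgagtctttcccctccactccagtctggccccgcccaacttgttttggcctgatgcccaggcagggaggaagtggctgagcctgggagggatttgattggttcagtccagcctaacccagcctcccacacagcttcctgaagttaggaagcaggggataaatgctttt
Cyp27a1: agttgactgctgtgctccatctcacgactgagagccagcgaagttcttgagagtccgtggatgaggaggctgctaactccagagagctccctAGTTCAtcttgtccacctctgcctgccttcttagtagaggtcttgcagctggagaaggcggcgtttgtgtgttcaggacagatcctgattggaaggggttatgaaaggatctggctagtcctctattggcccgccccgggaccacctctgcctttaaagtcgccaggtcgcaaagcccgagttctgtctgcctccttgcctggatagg

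In the Cyp3a25 promoter AGGTCA stood at -176 and its complement at -155 from the RefSeq start. AGTTCA stood at -158 in Cyp27a1, and its complement at -160 in Cyp4v3 and at -56 in Cyp4f13, whereas Cyp4f16 held neither. The printed matches do not overlap. Such short letters are common: AGGTCA was found on either strand in 16.3% of 32851 mouse promoters of this length and AGTTCA in 14.0%. Among 51 P450 genes with a promoter in the table, 12 held AGGTCA and 6 held AGTTCA on either strand. A half-site of Hnf1 factors, GTTAAT, stood in 2 of the 51 and in 7.10% of all promoters, and TTTATG, a motif of the intestinal factor Cdx2, in 7 and in 11.9%. Neither was found in the promoters printed here. Aligned end to end, the Cyp4f13 and Cyp4f16 promoters shared 176 of 357 positions (49.3%).

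Substrate classes were assigned from the gene symbol alone, and genes that matched no other class were placed with drugs and other foreign compounds. In that class 36 were measured, 18 tested and 2 called lower, Cyp3a25 and Cyp2d22. Over all genes 2.76% were called lower. In the Cyp3a cluster, which in mouse as in humans handles a large share of drugs, Cyp3a13 was bright and variable. It reached 102 at the lowest, 217 at the median and 501 at the highest of the knockouts, against 478 and 527 in controls. Knockout L replicate 2, at 501, was the single knockout above either control. The log2 difference of -1.41 ± 0.55 did not pass (limma adjusted p = 0.201). Cyp3a11, the main Cyp3a enzyme of adult mouse liver and gut, was too dim to be tested and was singled out after its values were seen. Its intensity was between 5.20 and 6.30 in the 8 knockouts, and 19.6 and 14.9 in the controls. Without the filter on dim genes limma called it lower.

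Of the 6 Cyp2d genes tested, Cyp2d22 was called. Cyp2d26 had a lower value in all 8 knockouts (lowest 36.3, median 127, highest 265) than in the controls (493 and 269), but its spread was wide and the difference of -1.17 ± 0.63 did not pass (limma adjusted p = 0.356). Cyp2s1, a P450 of barrier epithelia, lay at 192, 240.0 and 287 as lowest, median and highest of the knockouts, and at 348 and 353 in controls. Although the groups did not overlap, the adjusted p was 0.155 with limma (log2 difference -0.47 ± 0.17). Cyp2f2, the naphthalene-activating enzyme of club cells, was 388 ± 241 in knockouts (SD, n = 8) and 224 ± 27.4 in controls (SD, n = 2), with limma adjusted p = 0.700. Its knockout values spanned 155 to 804 and enclosed both controls. The 5 Cyp2c genes tested gave 0 calls, and of the 4 Cyp2b genes only Cyp2b10 was bright enough to test.

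By symbol, 19 genes were placed with fatty acid and eicosanoid metabolism, the pseudogene Cyp4f41-ps among them. Of these, 11 were tested, 8 had a lower value and 3 were called lower, with a median log2 difference of -0.45. Over all genes 51.3% had a lower value and 2.76% were called lower. Cyp4f14 missed the threshold: it lay at 1047, 1399.9 and 1628 as lowest, median and highest of the knockouts and at 2325 and 2095 in the controls. Despite the gap between the groups, the log2 difference of -0.73 ± 0.18 had a limma adjusted p of 0.0588, and 8 of 28 alternative settings called it. Cyp2j6, an arachidonic acid epoxygenase of the gut, was 163 ± 36.4 in knockouts (SD, n = 8) and 164 ± 17.6 in controls (SD, n = 2), a log2 difference of 0.02 ± 0.24. Cyp2u1, a long-chain fatty acid hydroxylase chosen after its values were seen, was below both controls in all 8 knockouts on each of its 2 probe sets. The brighter read 25.2 ± 4.72 in knockouts and 45.5 ± 3.69 in controls (limma adjusted p = 0.0750).

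Sterol, bile acid and vitamin D enzymes numbered 9, of which 5 were tested and Cyp27a1 alone was called, against 2.76% of all genes called lower. Cyp7a1, the rate-limiting enzyme of the classic bile acid route in liver, stood at 14.5 ± 1.05 in knockouts and 12.2 ± 0.922 in controls, below the array medians in both. A second Cyp27a1 probe set was at background, at 6.15 in either group, and carries no information on the call. A second probe set of Cyp4f16 read 62.3 ± 8.52 in knockouts and 91.9 ± 3.99 in controls, and one of Cyp2d22 17.3 ± 2.02 in knockouts and 24.6 ± 1.61 in controls. In both cases all 8 knockouts were below both controls. Of 5 steroid hormone genes 1 was tested, the 21-hydroxylase Cyp21a1 (24.8 ± 3.29 in knockouts, 22.5 ± 4.94 in controls), and of the retinoic acid hydroxylases both, Cyp26a1 and Cyp26b1. None of these 3 was called.

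Cyp20a1, a P450 with no assigned substrate, had its lower values in controls. Singled out after its values were seen, it read 48.8, 62.1 and 68.5 as lowest, median and highest of the knockouts, and 36.4 and 44.0 in controls. Its other 2 probe sets were also higher in all 8 knockouts than in both controls, at 29.2 ± 2.45 in knockouts against 17.2 ± 3.24 in controls, and 13.5 ± 1.12 in knockouts against 10.7 ± 0.706 in controls. The log2 difference of 0.45 ± 0.12 missed the threshold (limma adjusted p = 0.0688).

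The partners of the P450 enzymes were followed on lists of genes. The list of redox partners, with Pgrmc1 among them, held 7 genes, of which 5 were measured and tested and 0 were called. Por and Fdxr, also on the list, were not among the genes measured here. The progesterone receptor membrane component Pgrmc1 had the lowest value, at -0.45 ± 0.14 (limma adjusted p = 0.111). Heme synthesis and turnover gave 0 calls among 9 genes, and Alas1, the rate-limiting enzyme of heme synthesis, was 500.5 ± 79.7 in knockouts and 398 ± 15.3 in controls (limma adjusted p = 0.275). Among 11 receptors and transcription factors tested, 10 had a lower value, against 51.3% of all genes, and 0 were called. Nr1i2, the pregnane X receptor that induces Cyp3a genes, lay at 48.4, 78.2 and 108 as lowest, median and highest of the knockouts and at 164 and 122 in controls. No knockout reached the lower control, yet the log2 difference of -0.74 ± 0.25 did not pass (limma adjusted p = 0.144).

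Ppara, the fatty acid sensor that drives Cyp4a genes in liver, was 100.5 ± 33.8 in knockouts and 152 ± 0.967 in controls (limma adjusted p = 0.0854). Ahr, the sensor of planar aromatic compounds, had the single higher value of the 11, at 101 ± 13.3 in knockouts against 67.1 ± 7.29 in controls (limma adjusted p = 0.116). Hnf4a, which keeps the enterocyte and liver programmes active, differed by -0.10 ± 0.07. Of the epoxide hydrolases and targets of Ahr 4 were tested and 1 was called, against 2.76% of all genes called lower. This gene was Ephx2, the soluble hydrolase of fatty acid epoxides made by P450 enzymes. It ranged between 63.3 and 107 in knockouts, with a median of 77.5, and read 209 and 159 in controls, so the groups did not overlap. The log2 difference was -1.24 ± 0.12 (limma adjusted p = 0.00545).

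Cell type markers moved with the same comparison. For the counts that follow, 2.76% of all genes were called lower, 1.51% were called higher and 51.3% had a lower value. On the enterocyte list 3 of 8 genes fell, the fatty acid binding protein Fabp2, the microvillus protein Vil1 and the peptidase Anpep, with log2 differences of -0.93, -0.51 and -1.23. In all, 6 of the 8 had a lower value in knockouts and 2 a higher one. Apoa4, an apolipoprotein of absorptive cells, had a higher value in all 8 knockouts, at 1101 ± 524 in knockouts (SD, n = 8) against 558 ± 74.0 in controls (SD, n = 2), but was not called (log2 difference 0.65 ± 0.44, limma adjusted p = 0.476). Lgals4 differed by 0.02 ± 0.07, and Lct lay at background, with 14.5 in knockouts and 17.4 in controls. The list's summed intensity, 18028 to 22595 in knockouts and 27724 to 29844 in controls, did not overlap between the groups. Of 8 goblet and Paneth cell genes 2 rose, Agr2 and Pla2g2a, while 5 of the 8 had a higher and 3 a lower value in knockouts. Fcgbp, a goblet cell mucus protein, had a lower value in all 8 knockouts, at 4145 ± 309.5 in knockouts (SD, n = 8) and 5257 ± 234 in controls (SD, n = 2), and was not called (log2 difference -0.36 ± 0.11, limma adjusted p = 0.0939). Of 5 fibroblast genes 1 rose, Lum. These 6 called markers are named since they passed the threshold, and Apoa4, Lgals4, Lct and Fcgbp were chosen after their values were seen. The part of these cell types in the P450 differences was not tested. Club cell, alveolar type 2, smooth muscle, macrophage and liver lists gave 0 calls.

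H and L knockouts were compared for the variable weight named in the title. No P450 gene passed: limma called 0 of 38, and 0 of all 13644 genes, and at an unadjusted p under 0.05 it gave 0 P450 genes in either direction, against 1.14% of all genes lower and 1.09% higher. The members with the largest moderated statistics were Cyp3a25, Cyp7a1 and Cyp2f2 on the H side and Cyp2d34, Cyp2c55 and Cyp2j9 on the L side. Cyp3a25 averaged 17.1 ± 7.92 in H (SD, n = 5) and 14.7 ± 13.2 in L knockouts (SD, n = 3), and Cyp7a1 15.1 ± 0.711 in H and 13.4 ± 0.174 in L. Cyp2j9 read 14.4 ± 1.33 in H and 17.4 ± 1.70 in L. Each of the 6 had a limma adjusted p of 0.9998. Of the genes called between knockouts and controls, Cyp4v3 averaged 93.6 ± 33.8 in H and 89.8 ± 53.9 in L, and Cyp27a1 81.1 ± 5.78 in H and 82.2 ± 13.4 in L.

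Many P450 genes of mouse liver differ between the sexes, so the letters M and F were compared as well. Of 38 P450 genes 0 passed with limma, against 0.0147% of all genes higher and 0.00733% lower in M. At an unadjusted p under 0.05 there was 1 P450 gene (2.63%, against 2.66% of all genes lower and 2.17% higher): Cyp3a25, with a log2 difference of -0.69 ± 0.24, M minus F (limma adjusted p = 0.934). In upper against lower number range 0 P450 genes passed, against 0.132% of all genes higher and 0.169% lower. At an unadjusted p under 0.05 there was 1 P450 gene higher and 1 lower (2.63% each), against 5.42% and 4.84% of all genes. They were Cyp4f13, higher by 0.22 ± 0.08 in the upper range, and the oxysterol hydroxylase Cyp39a1, which differed by -0.24 ± 0.09 (limma adjusted p = 0.404 and 0.399).

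Some P450 genes differed more between animals of 1 group than between groups. Cyp2c55 and Cyp2c65, neighbouring Cyp2c genes expressed in mouse intestine, varied widely. Cyp2c55 read 824 in knockout L replicate 3 and 7.19 to 11.5 in the other 7 knockouts, and 26.6 and 215 in the controls. Cyp2c65 read 592 in the same knockout, 162 in knockout H replicate 1 and 15.9 in knockout H replicate 2, with 46.7 and 142 in the controls. In knockout H replicate 1, where Cyp2c65 was 162, Cyp2c55 was 11.4. In both genes the second control was the higher one. Car1, a carbonic anhydrase of the large intestine, stood at 5827 in knockout L replicate 3, 2682 in knockout H replicate 1, 1119.6 in knockout H replicate 5 and 10.1 to 240.5 in the other knockouts, and at 32.7 and 2041 in the controls. Car1 and the large intestine list were chosen after these values were seen. The summed list of 5 such genes was highest in knockout L replicate 3 at 7522, with Car2 at 1050.3, Mal at 227 and Aqp8 at 50.4 there. Slc26a3, also on the list, did not stand apart. It read 366 there, 211 to 345 in the other knockouts, and 377 and 432 in the controls. In knockout H replicate 1, Car1 alone made 2682 of a sum of 3107, beside Car2 at 45.2 and Aqp8 at 16.4. Mal was 49.1 there, above every other knockout but L replicate 3. In knockout H replicate 5, Car2 at 56.6 and Mal at 25.2 lay within the range of the other knockouts. The list's part in the Cyp2c levels was not tested. Without that knockout and control replicate 2, the arrays highest in Cyp2c55, limma called 2 P450 genes lower in knockouts.

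Cyp2d34 and Cyp2d9, members of the Cyp2d cluster, were high in a different set of animals, which also held knockout L replicate 3. Cyp2d34 read 139 in knockout L replicate 1, 123 in knockout L replicate 3 and 112 in knockout H replicate 3. The other 5 knockouts lay between 11.5 and 38.6, and the controls at 9.15 and 19.5. Cyp2d9 was highest in the same 3 animals, at 69.1, 31.9 and 75.1, against 10.5 to 25.9 in the other knockouts and 11.7 and 14.1 in the controls. Clps, the colipase of the exocrine pancreas, was at 2936, 1975 and 2845 in these 3 animals and at 639.6 to 1439 in the other knockouts, with 774 and 911 in the controls. It was chosen after the values were seen, from a pancreas list of which 10 genes were measured. Pnliprp2 and Pnliprp1 were also highest in these 3 animals, at 4536.5, 3348 and 4100 and at 124, 65.6 and 101. Cela1 read 54.5, 112.9 and 104.7 there, and 54.5 was its lowest value on any array. Cela2a, Cela3b, Cpa1, Cpb1, Ctrb1 and the trypsinogen Prss2 lay between 8.96 and 38.6 on all arrays. The list's part in the Cyp2d levels was not tested. Neither P450 gene passed between knockouts and controls with limma (adjusted p = 0.486 and 0.532).

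**Figure D4:**
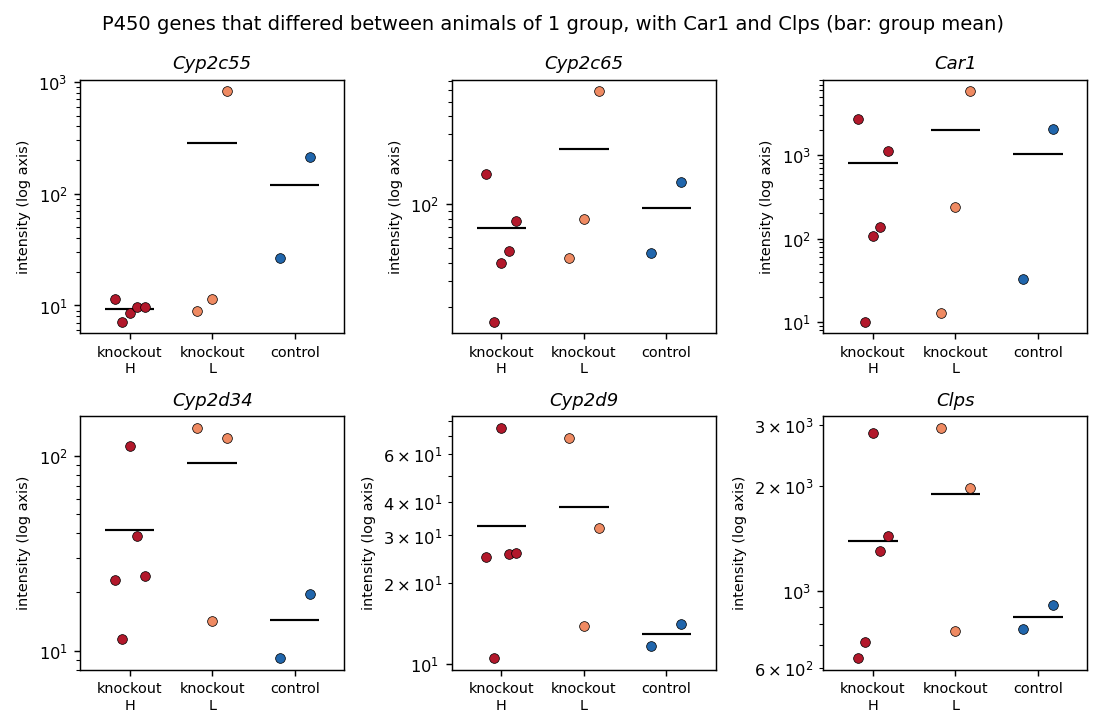
Intensity (log axis) of Cyp2c55, Cyp2c65, Cyp2d34 and Cyp2d9 on every array, with Car1 and Clps, for 5 knockouts H, 3 knockouts L and 2 controls; bars are group means. Knockout L replicate 3 is highest in Cyp2c55 (824), Cyp2c65 (592) and Car1 (5827), and the 3 arrays high in Cyp2d34 (112 to 139) are also the 3 highest in Clps.

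The promoters of Cyp2c55 and Cyp2c65 are printed because both genes were highest in knockout L replicate 3. They lie at chr19:39006769-39007068 and chr19:39060756-39061055, both on the plus strand (GRCm38.p6, RefSeq), and cover the same 250 bases before and 50 after the start. No capitals appear, since neither holds any of the 4 motifs searched.
Cyp2c55: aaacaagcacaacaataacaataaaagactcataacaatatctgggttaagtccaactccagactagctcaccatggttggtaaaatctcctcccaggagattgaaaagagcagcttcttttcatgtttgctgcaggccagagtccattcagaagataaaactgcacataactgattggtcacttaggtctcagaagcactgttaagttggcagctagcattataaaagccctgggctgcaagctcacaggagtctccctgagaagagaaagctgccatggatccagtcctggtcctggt
Cyp2c65: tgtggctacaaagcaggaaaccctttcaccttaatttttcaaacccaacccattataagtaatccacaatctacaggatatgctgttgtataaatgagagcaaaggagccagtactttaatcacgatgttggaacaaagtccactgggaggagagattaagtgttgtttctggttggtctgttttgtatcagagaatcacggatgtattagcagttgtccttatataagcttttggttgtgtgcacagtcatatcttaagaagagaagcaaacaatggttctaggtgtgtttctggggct
Aligned end to end, the sequences shared 175 of 329 positions (53.2%).

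Since both lung and gut transcripts were present, each P450 gene tested was correlated within the 8 knockouts with 3 marker lists, taken as the mean log2 deviation of the list's genes. Of 114 relations, 4 passed an exact permutation test over all orders of the 8 arrays after Benjamini-Hochberg adjustment over the 114. Cyp2f2 followed the club cell list with Pearson r = 0.962 (exact permutation p = 0.000149, adjusted 0.00848) and Spearman rho = 0.976 (exact p = 0.000397, adjusted 0.0226). Its values were 804 and 671 on the knockouts highest in the list, H replicates 2 and 5, and 155 and 161 on the lowest, H replicate 3 and L replicate 1. Cyp2b10, a phenobarbital-inducible enzyme also made in airway cells, gave r = 0.957 (exact permutation p = 9.92e-05, adjusted 0.00848) and rho = 0.952 (exact p = 0.00114, adjusted 0.0434). Without the 2 knockouts farthest from the median of the list, r was 0.941 for Cyp2f2 and 0.965 for Cyp2b10. The alveolar type 2 list was not correlated with any P450 gene. Its mean deviation put the 8 knockouts in the same order as Cyp2b10, from 1.30 on H replicate 2 to -0.64 on H replicate 3. Whether Cyp2b10 went with club cell genes or with lung transcripts more widely was not tested.

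Cyp2d34 and Cyp2d26 followed the smooth muscle list. Cyp2d34 gave r = 0.973 (exact permutation p = 0.000694, adjusted 0.0219) and rho = 0.929 (exact p = 0.00223, adjusted 0.0509), so its rank correlation missed the threshold. Cyp2d26 gave r = 0.908 (exact permutation p = 0.000769, adjusted 0.0219) and rho = 0.976 (exact p = 0.000397, adjusted 0.0226). Leaving out the 2 farthest knockouts, L replicate 3 and H replicate 3, r was 0.968 for Cyp2d34 and 0.835 for Cyp2d26. L replicate 1 then stood apart, at 0.37 in the list and 139 in Cyp2d34. The remaining knockouts lay at -0.55 to -0.13 and at 11.5 to 38.6, so this r of Cyp2d34 rests largely on 1 array. The 2 lists ran against each other on several knockouts: the mean deviation on H replicate 2 was -0.55 for smooth muscle and 1.04 for club cells, and on H replicate 3 it was 0.49 and -0.89 for the same lists. Each of the 4 genes had a correlation of the opposite sign with the other list that missed the threshold after adjustment. With the club cell list, Cyp2d34 gave r = -0.892 (exact permutation p = 0.00429, adjusted 0.0543) and Cyp2d26 gave r = -0.881 (exact permutation p = 0.00392, adjusted 0.0543). With the smooth muscle list, Cyp2f2 gave r = -0.870 (exact permutation p = 0.00875, adjusted 0.0768) and Cyp2b10 gave r = -0.851 (exact permutation p = 0.0035, adjusted 0.0543). The pancreas and fibroblast lists were not correlated with any P450 gene. Among the knockouts both were highest on L replicate 1, H replicate 3 and L replicate 3, as the smooth muscle list was. The pancreas list stood at 0.42, 0.50 and 0.41 there, and the fibroblast list at 0.36, 0.31 and 0.31. Which of the lists a gene went with was not tested. No gene passed with the enterocyte list, where Cyp3a13 was the highest at r = 0.869 (exact permutation p = 0.00563, adjusted 0.0642). The number ranges hold 5 and 3 knockouts, too few for a correlation within a range. With the knockouts H replicates 2 and 5 left out, 0 relations passed. The 6 arrays left allow only 720 orders, and why the relations were lost was not tested.

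**Figure D5:**
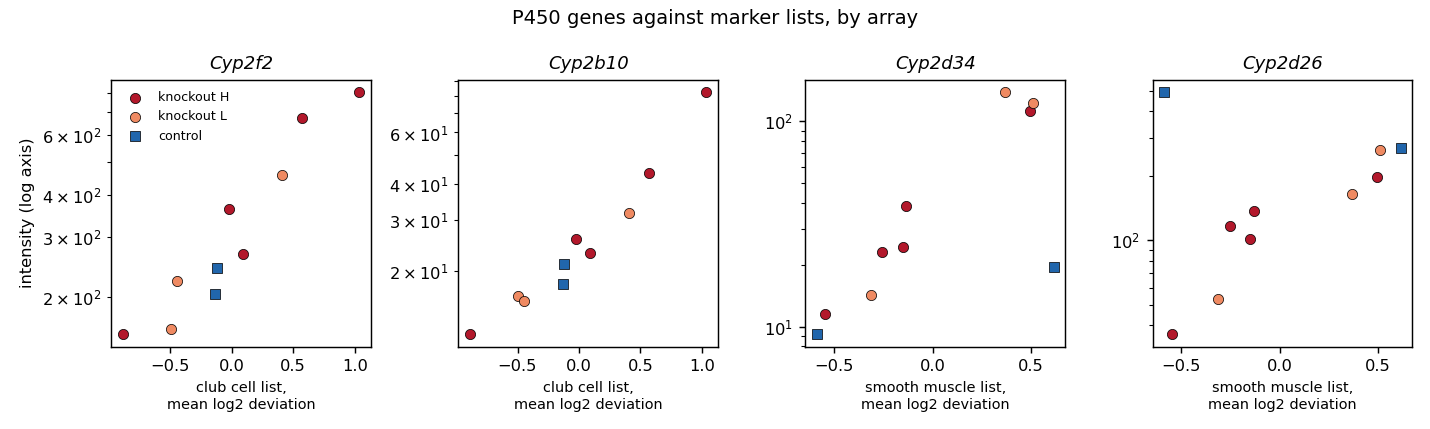
Intensity (log axis) of Cyp2f2 and Cyp2b10 against the mean log2 deviation of the club cell list, and of Cyp2d34 and Cyp2d26 against that of the smooth muscle list, for knockouts (circles) and controls (squares). The knockouts form rising lines in all 4 panels, and control replicate 2, high in smooth muscle genes, lies far under the line of Cyp2d34 at 19.5. The controls run the other way in Cyp2d26. Control replicate 1, lowest in smooth muscle genes at -0.59, reads 493, and control replicate 2, highest at 0.61, reads 269.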

How the data were processed

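The authors deposited 1 linear intensity per probe set and array for 10 arrays of total RNA. How these were summarized, background-corrected and normalized is not stated in the labels or file headers. Array medians of 18.4 to 18.9 and 75th percentiles within 1.07 times showed values already on a like scale, and no normalization was added.

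After 64 array controls were left out, 45037 of 45101 probe sets remained: 34945 had 1 symbol in the platform annotation, 932 several and 9160 none, and 34741 symbols were updated through the RefSeq gene list. Unused were 4 P450 probe sets with several symbols. The suffix _s_at, which marks probes that can match several genes, was held by 5 members, among them Cyp4v3, Cyp2c65 and Cyp2b10. Genes whose mean log2(intensity + 16) lay at or under the 25th percentile (4.89, an intensity of 13.6) were left out, which left 13644. The added 16 understates differences of dim genes.

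Comparisons used limma 3.58.1 (functions lmFit and eBayes, R 4.3.3), two-sided, adjusted over all 13644 genes. Only the knockout versus control fit was tried on simulated data. Knockout versus control was adjusted for number range and letter. H versus L, M versus F and the range came from a fit of 3 groups. Group means are plain means of the intensities, and log2 differences are adjusted for the covariates. Correlations, plots and promoter alignments used Python 3.11.15, numpy 2.4.6, matplotlib 3.10.9 and Biopython 1.88. No pair of arrays held identical values.

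Named were members past a threshold, the 10 brightest, the 3 highest and 3 lowest by moderated t where fewer than 6 passed, members past the correlation test, called pathway genes and set receptors. The members, lists and tests were chosen with earlier results of these data known. Alternatives varied the pseudocount, filter, normalization, probe set choice, covariates and arrays left out. Of these, 3 (no pseudocount, the arrays highest in large intestine genes or in Cyp2d34 left out) were added after these values had been seen. Further animals of the design were not analysed here.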

Additional observations from a re-analysis of the deposited data

Results flagged for a closer look

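Among 24 named P450 genes, the values of all 8 knockouts and of the 5 H knockouts were searched for an array far from the others by Dixon's criterion on the log2 scale. Of 48 gene and group pairs 3 were found, where chance alone gives about 1 in 20. Cyp2c55 was 824 in knockout L replicate 3, and the next highest of the 8 knockouts was 11.5. Cyp2d22, which was called lower in knockouts, was 26.2 in knockout L replicate 3, and the next highest knockout was 18.6, all of them under the controls at 48.2 and 40.2. Cyp7b1, an oxysterol hydroxylase near the array medians, was 21.8 in knockout H replicate 3, and the next highest of the 5 H knockouts was 15.6.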

How the results depend on the processing

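Between knockouts and controls, the count of P450 genes called lower was 6, and 0 to 8 when 1 array was left out: 0 without control replicate 1, 1 without control replicate 2, 2 without knockout H replicate 4, and 3 without knockout L replicate 3 or knockout H replicate 5. It was 11 in the lower number range alone. The setting without both arrays highest in large intestine genes left out knockout L replicate 3 and control replicate 2. These were highest by the mean log2 deviation of that list, at 2.12 and 1.52, and not by its summed intensity. That setting left 1 control. With 1 control left, its spread was assumed to be that of the other arrays. The count called higher was 0, and 0 to 1 when 1 array was left out (1, Cyp20a1, without knockout H replicate 1). It was 1 with the mean over all probe sets, 1 without covariates, 1 with the letter only and 2 in the lower range alone. Over all genes 376 were called lower and 206 higher, and calls in both directions together numbered 0 to 1367 under the alternatives. The log2 difference of Cyp3a25 ran between -4.38 and -2.07 and passed in 26 of 27 alternatives, Cyp27a1 in 25 of 28, Cyp4v3 in 23 of 28, Cyp2d22 in 22 of 27, Cyp4f13 in 19 of 28 and Cyp4f16 in 13 of 28. No called difference changed sign. All 6 calls stayed without knockout L replicate 1, knockout L replicate 2 or knockout H replicate 1. The cause of the lost calls under other settings was not tested. H versus L, M versus F and the number range gave 0 P450 genes under all of their alternatives. Genes following the club cell list numbered 2, then 3 with a pseudocount of 1 and 0 without both arrays highest in lung transcripts. With the smooth muscle list they numbered 2, then 4 with a pseudocount of 1 and 0 without those arrays. The 6 arrays left allow only 720 orders, and why the relations were lost was not tested. No paired analysis was possible because the replicate numbers were given in accession order and pair no animals. Genes as dim as the array medians are near background, where small differences do not show.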
